A study of Mus musculus with 20 samples.

Results

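Flavin-containing monooxygenases (FMO) and aldehyde oxidases (AOX) are oxidative drug-metabolizing enzymes of the liver that work beside the cytochromes P450. The genes described here are Fmo1, Fmo2, Fmo4, Fmo5, Aox1 and Aox3, chosen by gene name, which are 6 of the 38924 genes in the table. RNA was sequenced from a piece of 1 liver lobe of each of 20 male mice, 5 in each of 4 groups. NDWT were C57BL/6J wild type (WT) mice on control diet and NDKO were TSP-1 knockout (TSP-1 null) mice on control diet. HFWT were WT mice and HFKO TSP-1 null mice fed CDAHFD. This high fat diet of defined amino acids lacks choline and is limited in methionine, and was used as a model of non-alcoholic steatohepatitis. All mice were bought at 5 weeks of age, acclimated, and kept on their diet for 12 weeks. Mice of both genotypes came from the same supplier, and the methods describe no restriction of the knockout to a cell type.

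FMOs sit in the membrane of the endoplasmic reticulum, bind FAD and draw electrons from NADPH to oxygenate nitrogen and sulfur atoms of drugs and dietary amines. Fmo1 and Fmo5 are liver forms in the male mouse, and Fmo2 is best known from the lung. AOXs are cytosolic enzymes that hold FAD, iron-sulfur clusters and a molybdenum cofactor, and oxidize aldehydes and nitrogen heterocycles, including N-methylnicotinamide and retinal. Aox3 is the main liver form in the mouse, and Aox1 is present in liver beside other tissues.

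Libraries held 15641545 to 23276322 fragments, and the deposited unit was FPKM, in which fragments are scaled to gene length and to the fragments assigned to genes in the library and which allows levels of different genes to be compared. Of 9 hepatocyte markers, none was at 0 in any group, with a summed level of 27629 to 48618 FPKM over the 20 libraries. Thbs1, the gene of TSP-1, was not lower in the libraries labelled TSP-1 null. It was 0.058 to 0.326 FPKM in NDWT and 0.986 to 1.90 FPKM in NDKO (log2FC 2.28, limma FDR 1.02e-05), and 3.46 to 6.10 FPKM in HFWT and 3.05 to 4.40 FPKM in HFKO (log2FC -0.39, FDR 0.408). Levels are summed over the whole gene and do not show whether the targeted part was transcribed, so the genotypes below follow the labels. The diet changed much of the liver transcriptome: the median log2FC over the 14524 genes tested was 0.53 in the WT and 0.50 in the TSP-1 null comparison.

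On GRCm38, 3 of the FMO genes lie side by side on the minus strand of chromosome 1, Fmo4 (ENSMUSG00000026692.6) at chr1:162793883-162813972, Fmo1 (ENSMUSG00000040181.8) at chr1:162829561-162866548 and Fmo2 (ENSMUSG00000040170.7) at chr1:162874317-162898726. Fmo5 (ENSMUSG00000028088.8) lies on the plus strand at chr3:97628804-97655282. Aox1 (ENSMUSG00000063558.4) at chr1:58029931-58106413 and Aox3 (ENSMUSG00000064294.6) at chr1:58113130-58200698 are neighbours on the plus strand. No 31-base stretch was shared between any of the 6 genes. Fmo1 shared 7.95% of its 31-base stretches with other genes of the annotation, and the other members 1.21% or less.

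Sequence before the RefSeq transcription start on GRCm38.p6 is shown for the adjacent pair Aox1 and Aox3, which differed in their response to the diet, and for Fmo2, the member with the largest log2FC in WT mice. RefSeq promoters were found for 5 of the 6 members, all but Fmo1. The 250 bases before each start were searched on both strands for the antioxidant response element core TGACNNNGC, the HNF1 motif GTTAAT and a TATA box TATAAA. The AP-1 site TGACTCA was added after the sequences had been seen. Capitals mark a match, and bases inside the gene as the table places it (38 for Aox1 and 6 for Aox3) are left out.
Aox1, chr1:58029719-58029930, plus strand: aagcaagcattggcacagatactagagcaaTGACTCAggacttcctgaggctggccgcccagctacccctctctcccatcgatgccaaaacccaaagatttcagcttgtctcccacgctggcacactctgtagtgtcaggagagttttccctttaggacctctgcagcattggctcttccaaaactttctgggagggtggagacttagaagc
Aox3, chr1:58112886-58113129, plus strand: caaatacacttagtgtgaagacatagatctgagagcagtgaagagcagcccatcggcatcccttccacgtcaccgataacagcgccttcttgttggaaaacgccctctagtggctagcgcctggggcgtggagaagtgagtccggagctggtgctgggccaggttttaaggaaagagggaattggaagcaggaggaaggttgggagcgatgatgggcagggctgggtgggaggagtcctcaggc
Fmo2, chr1:162898759-162899008, minus strand: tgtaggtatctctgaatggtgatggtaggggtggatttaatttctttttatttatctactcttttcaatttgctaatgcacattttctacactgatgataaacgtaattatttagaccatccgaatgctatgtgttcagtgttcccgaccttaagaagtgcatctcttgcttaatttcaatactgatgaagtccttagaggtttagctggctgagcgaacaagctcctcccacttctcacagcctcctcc
TGACTCA stood in the Aox1 window, on the strand of the gene, 220 to 214 bases before the start, and in 4.46% of 32851 RefSeq promoters. The only other match was TATAAA in the Fmo5 window, on the opposite strand, 195 to 190 bases before the start, a motif held by 12.4% of promoters. TGACNNNGC (10.2% of promoters) and GTTAAT (6.43%) were in none of the members' windows. G and C made up 52.4% of the bases shown for Aox1, 56.6% for Aox3 and 39.6% for Fmo2.

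Fmo5 and Aox3 were the most abundant members in NDWT, at 89.0 ± 13.0 and 84.6 ± 16.2 FPKM (mean ± SD, n = 5 in every group here and below), and their libraries overlapped. Fmo1 followed at 44.5 ± 3.05 FPKM, then Aox1 at 8.23 ± 0.812 FPKM. Fmo2 at 1.81 ± 0.878 and Fmo4 at 1.59 ± 0.531 FPKM were the lowest and did not differ beyond their spread. Fmo5 ranked 606 among all genes by mean level in NDWT and 351 in HFWT, whereas Aox3 went from rank 635 to 804. Fragments per library ranged from 44 to 235 for Fmo4 and from 6413 to 21226 for Fmo5, so counting error is largest for Fmo4.

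**Figure D1:**
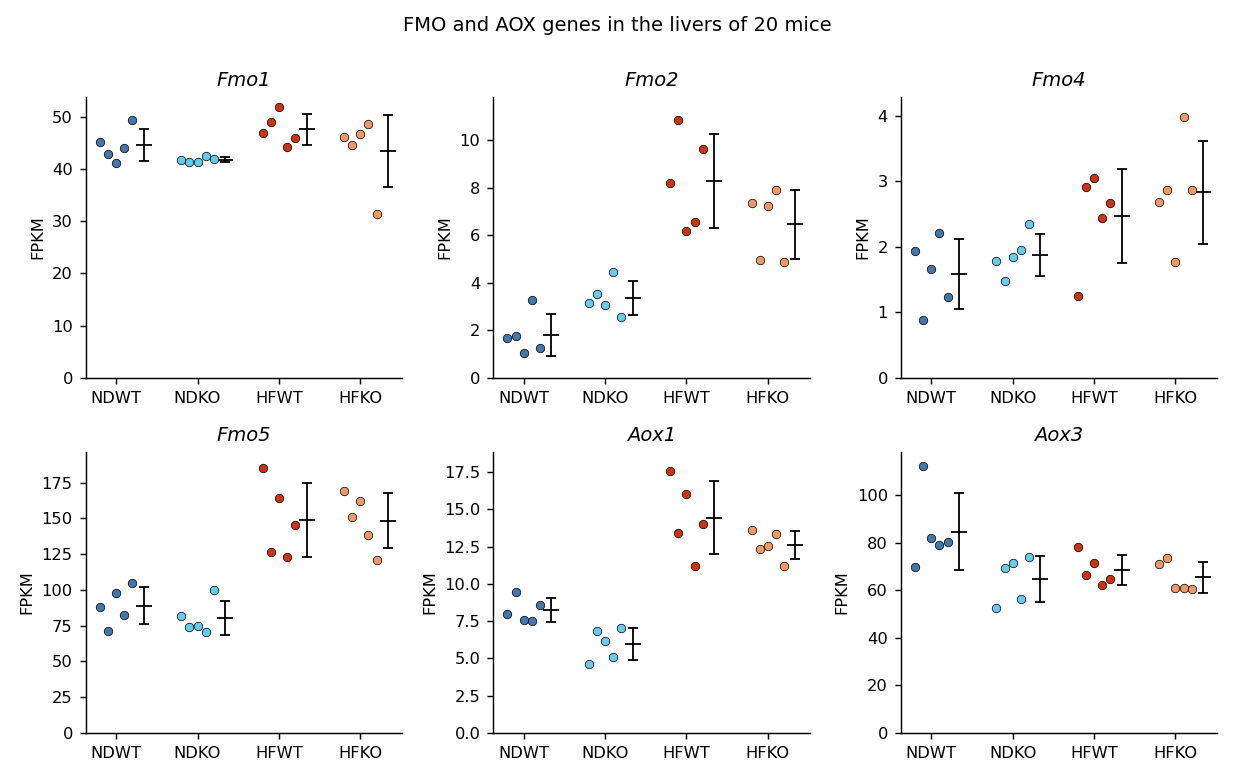
FPKM (vertical axes, from 0) of the 6 genes in each liver, by group; each point is 1 mouse, and the bar beside it gives the mean ± SD of 5 mice. For Fmo2, Fmo5 and Aox1 all CDAHFD livers lie above all control diet livers of the same genotype, while Fmo1 and Aox3 overlap between the diets.

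The first question was what CDAHFD did to these genes in each genotype. In WT liver 4 of the 6 genes rose (Fmo2, Fmo4, Fmo5 and Aox1) and none fell, beside 44.1% of all tested genes called higher and 4.62% called lower. A gene was called at a limma FDR under 0.05 and an absolute log2FC above 0.58, the thresholds of the study. In TSP-1 null liver 3 of the 6 rose (Fmo2, Fmo5 and Aox1), beside 41.9% of genes called higher and 4.00% called lower. The groups did not overlap for 3 members in each genotype (Fmo2, Fmo5 and Aox1), as was so for 56.2% of all genes in WT liver and 57.8% in TSP-1 null liver. The median log2FC of the 6 genes was 0.67 for WT and 0.71 for TSP-1 null liver, beside 0.53 and 0.50 over all genes. Nothing particular to these 6 genes is read from the counts, since a rise was common among all genes with FPKM as deposited. That excess depended on the scaling: after median of ratios scaling 22.7% of all genes were called higher and 15.4% lower in WT liver, and 22.2% and 13.6% in TSP-1 null liver. In bulk tissue, fewer cells of a type and less RNA per cell cannot be told apart.

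Fmo2 had the largest log2FC of the members in WT mice. It was 1.67, 1.76, 1.06, 3.29 and 1.25 FPKM in NDWT 1 to 5 and 8.19, 10.8, 6.17, 6.57 and 9.63 FPKM in HFWT 1 to 5. Every HFWT liver was above every NDWT liver, and NDWT4 was the highest of its group. The gene rose 4.62-fold (log2FC 2.21 ± 0.24 SE, FDR 9.92e-08, limma).
In TSP-1 null mice Fmo2 was 3.15, 3.53, 3.06, 4.47 and 2.58 FPKM in NDKO and 7.35, 4.96, 7.22, 7.89 and 4.86 FPKM in HFKO. The groups did not overlap, and the rise was 1.89-fold (log2FC 0.92 ± 0.24 SE, FDR 0.00199).

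Fmo5, whose protein is known for Baeyer-Villiger oxidation more than for N-oxygenation, rose from a high level in both genotypes. It was 88.2, 71.5, 97.7, 82.7 and 105 FPKM in NDWT and 185, 126, 164, 123 and 146 FPKM in HFWT, with no overlap (log2FC 0.74 ± 0.13 SE, FDR 4.26e-05). NDKO livers held 81.9, 74.3, 74.5, 70.7 and 100.2 FPKM and HFKO livers 169, 151, 162, 138 and 121 FPKM. These groups did not overlap either, and the rise was 1.85-fold (log2FC 0.89 ± 0.13 SE, FDR 5.28e-06).

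Fmo4 was measured from few fragments, and its call was the least firm. It was 1.94, 0.883, 1.66, 2.21 and 1.24 FPKM in NDWT and 1.25, 2.91, 3.06, 2.43 and 2.67 FPKM in HFWT. HFWT1 lay among the control diet livers and the other 4 HFWT livers above them (log2FC 0.61 ± 0.25 SE, FDR 0.0337). The call was lost in 6 of 20 fits that each left out 1 library (NDWT2, NDWT5, HFWT2, HFWT3, HFWT4 and HFWT5), and over all 20 fits the log2FC lay between 0.43 and 0.83. In TSP-1 null mice Fmo4 was 1.78, 1.47, 1.84, 1.95 and 2.35 FPKM in NDKO and 2.68, 2.87, 1.77, 3.98 and 2.86 FPKM in HFKO (log2FC 0.54 ± 0.25 SE, FDR 0.0596). That comparison passed both thresholds without HFKO3 (log2FC 0.69, FDR 0.0197) and without NDKO5 (log2FC 0.62, FDR 0.0446).

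Fmo1, a major FMO of mouse liver that oxygenates many drugs, showed no call in either genotype. Its livers lay between 41.2 and 49.3 FPKM in NDWT (median 44.0), between 41.3 and 42.5 in NDKO (median 41.7), between 44.2 and 51.8 in HFWT (median 46.8) and between 31.5 and 48.6 in HFKO (median 46.2). The log2FC was 0.10 in WT (95% interval -0.09 to 0.28, FDR 0.341) and 0.04 in TSP-1 null mice (95% interval -0.15 to 0.23, FDR 0.688). Both lie below the median of all genes. In TSP-1 null mice the overlap rested on HFKO5. Without HFKO5 the log2FC was 0.15 and the FDR 0.0229, short of the fold threshold. After median of ratios scaling the log2FC was -0.46 in WT (FDR 0.000557) and -0.49 in TSP-1 null mice (FDR 0.000341), also short of that threshold. NDKO livers were close together, with a coefficient of variation of 1.16%, against 6.86% in NDWT and 15.8% in HFKO.

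Aox1 rose in both genotypes while Aox3, the gene next to it, was not called in either. Aox1 was 7.99, 9.46, 7.57, 7.54 and 8.62 FPKM in NDWT and 17.6, 13.4, 16.0, 11.2 and 14.0 FPKM in HFWT. All HFWT livers were higher than all NDWT livers, and the rise was 1.73-fold (log2FC 0.79 ± 0.12 SE, FDR 9.08e-06). In TSP-1 null mice it was 4.64, 6.81, 6.20, 5.11 and 7.06 FPKM in NDKO and 13.7, 12.4, 12.6, 13.3 and 11.2 FPKM in HFKO, again without overlap (2.12-fold, log2FC 1.08 ± 0.12 SE, FDR 1.91e-07).

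Aox3 was 69.8, 112, 82.0, 78.9 and 80.1 FPKM in NDWT and 78.3, 66.4, 71.3, 62.2 and 64.8 FPKM in HFWT. The groups overlapped, and NDWT2 stood above all other livers. The log2FC of -0.29 ± 0.12 SE passed the FDR (0.0323), as 73.1% of all genes did, but not the fold threshold. The FDR was 0.05 or more in 4 of 20 fits that each left out 1 library (NDWT2, HFWT2, HFWT4 and HFWT5), and without NDWT2 the log2FC was -0.18 and the FDR 0.118. In TSP-1 null mice the levels were 52.6, 69.1, 71.2, 56.3 and 73.9 FPKM in NDKO and 71.0, 73.3, 60.8, 61.0 and 60.4 FPKM in HFKO, which overlapped throughout (log2FC 0.02, 95% interval -0.22 to 0.27, FDR 0.867).

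**Figure D2:**
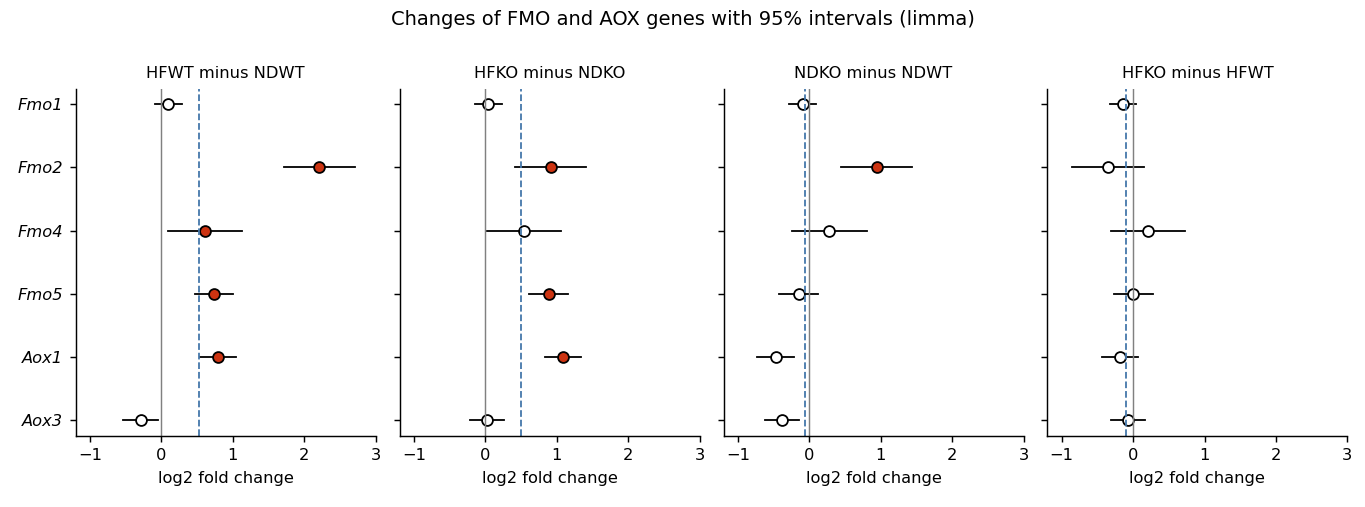
log2 fold change (horizontal axes, on the log2(FPKM + 0.1) scale) of the 6 genes in the 4 comparisons, with the 95% interval of the limma fit; red points passed both thresholds, open points did not, and the dashed line is the median of all 14524 genes. Fmo2 in HFWT minus NDWT stands apart at 2.21, and no gene is red in HFKO minus HFWT.

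A ratio between 2 genes of 1 library does not change when the whole library is multiplied by 1 factor, as in median of ratios scaling, but quantile normalization does change it. The ratio of Aox3 to Aox1 was 8.74 to 11.9 in NDWT and 10.1 to 11.5 in NDKO, and 4.45 to 5.55 in HFWT and 4.57 to 5.93 in HFKO. No CDAHFD liver reached the lowest control diet liver, and the genotypes overlapped on each diet. Aox1 made up 8.99 ± 1.001% of the summed AOX level in NDWT livers, 8.43 ± 0.410% in NDKO livers, 17.3 ± 1.31% in HFWT livers and 16.2 ± 1.36% in HFKO livers. The summed level itself was 92.8 ± 16.8 FPKM in NDWT and 83.0 ± 8.71 FPKM in HFWT, within the spread of the groups.
The ratio of Fmo5 to Fmo1 was 1.67 to 2.37 in NDWT livers, 1.66 to 2.39 in NDKO livers, 2.58 to 3.95 in HFWT livers and 2.85 to 3.84 in HFKO livers. Here too every CDAHFD liver lay above every control diet liver. Of the summed level of the 4 FMO genes, Fmo5 made up 64.8 ± 3.21% in NDWT and 71.5 ± 3.66% in HFWT, Fmo1 went from 32.7 ± 2.76% to 23.2 ± 2.54% of the sum, which was not tested, and Fmo2 went from 1.35 ± 0.708% to 4.06 ± 1.17%. Among TSP-1 null mice, Fmo5 made up 62.9 ± 3.39% in NDKO and 73.8 ± 2.39% in HFKO, Fmo1 33.0 ± 2.75% and 21.6 ± 1.82%, and Fmo2 2.68 ± 0.726% and 3.20 ± 0.550%, the last with overlapping groups. Ratios are described without a p-value because the members were chosen with results of these data known.

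**Figure D3:**
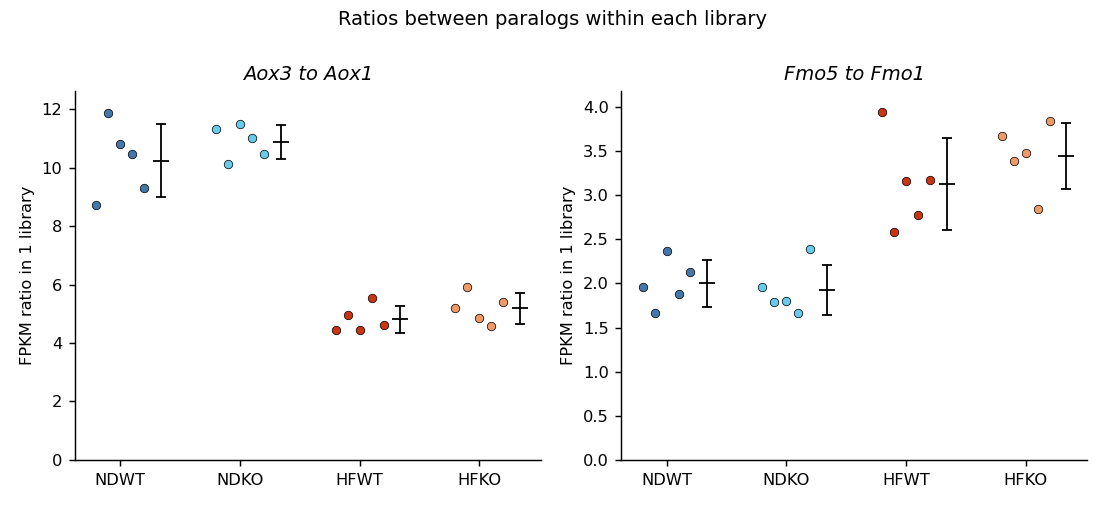
FPKM ratio of Aox3 to Aox1 (left) and of Fmo5 to Fmo1 (right) within each library, by group (vertical axes from 0); each point is 1 mouse and the bar gives the mean ± SD of 5 mice. The Aox3 to Aox1 ratio is at least 8.74 on control diet and at most 5.93 on CDAHFD, and the Fmo5 to Fmo1 ratio is at most 2.39 on control diet and at least 2.58 on CDAHFD.

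How far libraries are scaled to each other decided several diet calls, since with FPKM as deposited the median gene was itself higher on CDAHFD. When libraries were rescaled by the median of ratios, which brings the median log2FC of all genes to -0.01 in both genotypes, Fmo2 was the 1 member called higher in WT (log2FC 1.66), and Aox3 was called lower (log2FC -0.85, FDR 3.14e-06). Under the same scaling no member was called in TSP-1 null mice, where Aox1 was at 0.55, Fmo2 at 0.39 and Fmo5 at 0.35. With quantile normalization 18.9% of all genes were called higher and 16.2% lower in WT liver, and 18.5% and 13.7% in TSP-1 null liver. Fmo2 (1.52) and Fmo5 (0.78) were called higher in WT, and Fmo5 (0.89) and Aox1 (0.59) in TSP-1 null mice, where Fmo2 was at 0.30. Aox1 and Aox3 were then at 0.34 and -0.33 in WT and at 0.59 and -0.07 in TSP-1 null mice. Fmo1 changed sign under both scalings, and Fmo4 was negative with quantile normalization in both genotypes (log2FC -0.26 and -0.23).

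**Figure D4:**
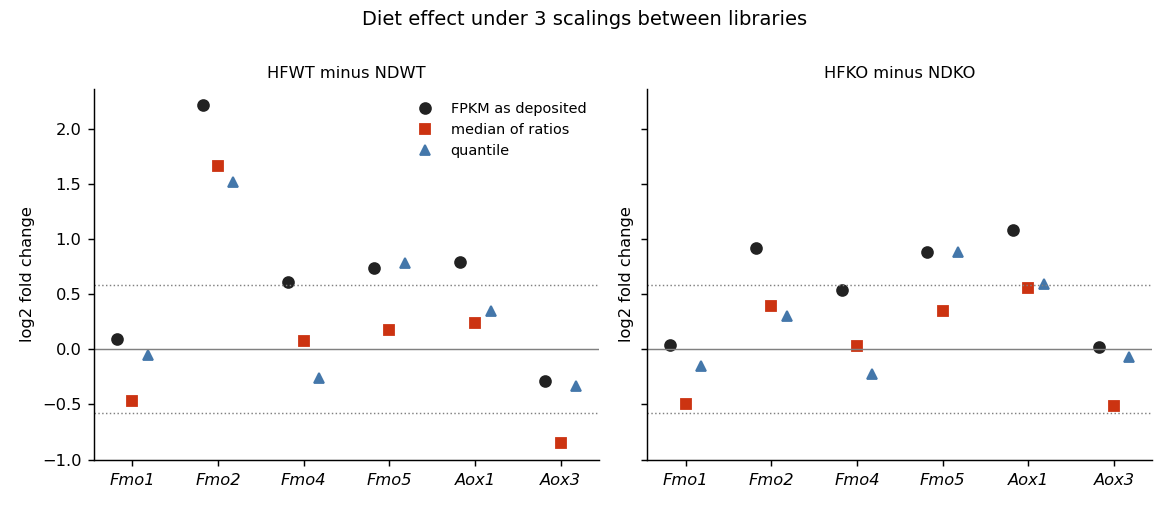
log2 fold change of the 6 genes for CDAHFD against control diet in WT (left) and TSP-1 null mice (right), with FPKM as deposited (circles), after median of ratios scaling (squares) and after quantile normalization (triangles); dotted lines mark the fold threshold of 0.58 in both directions. Fmo2 in WT stays above 1.5 under all 3, while Fmo1 and Aox3 lie at or below 0.10 under all 3.

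The second question was how the livers labelled TSP-1 null differed from WT on the same diet. On control diet Fmo2 rose and no member fell, beside 1.74% of all genes called higher and 3.03% called lower. Fmo2 was 1.92-fold higher in NDKO (log2FC 0.94 ± 0.24 SE, FDR 0.0132), although NDWT4 at 3.29 FPKM lay inside the NDKO range of 2.58 to 4.47 FPKM. The call was lost when the 2 groups were fitted alone (FDR 0.0541).
Both AOX genes passed the FDR in the other direction without reaching the fold threshold, a limit on FDR alone that 13.1% of all genes passed. Aox1 had a log2FC of -0.47 ± 0.12 SE (FDR 0.0148), and its groups did not overlap, as was so for 9.03% of all genes: the lowest NDWT liver had 7.54 and the highest NDKO liver 7.06 FPKM. Aox3 had a log2FC of -0.38 ± 0.12 SE (FDR 0.0357) with overlapping groups. Over the alternatives tried the FDR of Aox1 ranged from 0.00809 to 0.0594 and that of Aox3 from 0.0209 to 0.110. The Aox3 to Aox1 ratio overlapped between NDWT and NDKO. Fmo1 (-0.09), Fmo4 (0.28) and Fmo5 (-0.15) had an FDR of 0.506 or more.

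On CDAHFD no member was called between the genotypes, beside 0.496% of all genes. The values were log2FC -0.35 for Fmo2 (FDR 0.463), -0.18 for Aox1 (FDR 0.459), -0.14 for Fmo1 (FDR 0.425), 0.21 for Fmo4 (FDR 0.691), -0.07 for Aox3 (FDR 0.782) and 0.003 for Fmo5 (FDR 0.995). The 95% interval of Fmo5 ran from -0.27 to 0.27 and that of Fmo2 from -0.85 to 0.15.

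Whether the genotypes differed in their response to diet was tested as an interaction in the same fit. No member was called, beside 0.647% of genes. For Fmo2 the diet response was smaller in TSP-1 null mice by a log2FC of -1.29 ± 0.34 SE, with a limma p of 0.00111 and an FDR of 0.0698. Without NDWT4, the NDWT liver with the highest Fmo2, the value was -1.53 and the FDR 0.0124. In the other 19 fits that each left out 1 library the FDR stayed above 0.05, up to 0.128, and the smallest difference was -1.14. The FDR was 0.0786 after median of ratios scaling and 0.105 with quantile normalization. The 4 comparisons share their groups: the mean level of Fmo2 was 1.81 ± 0.878 FPKM in NDWT, 3.36 ± 0.708 FPKM in NDKO, 8.28 ± 1.98 FPKM in HFWT and 6.46 ± 1.44 FPKM in HFKO. The interaction was 0.31 for Aox3 (FDR 0.387) and 0.29 for Aox1 (FDR 0.451).

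Aox2, Aox4, Fmo6 and Fmo9 were at or near 0 in these livers. Aox2, known from the nasal epithelium, had at most 5 fragments in a library, Aox4, known from skin and the Harderian gland, and Fmo6 at most 1, and Fmo9 none.

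Liver genes known to be sex-biased were described beside the members, all in male mice. Of 10 male-biased genes 8 fell in WT mice and 10 in TSP-1 null mice on CDAHFD (median log2FC -2.12 and -2.70), among them Elovl3, a fatty acid elongase (log2FC -4.02 and -4.46), and the cytochrome P450 gene Cyp2d9 (-2.02 and -2.62). Cyp4a12a and Cyp4a12b also fell between the genotypes on both diets, with a log2FC of -1.13 and -0.68 in NDKO and -1.75 and -1.25 in HFKO. Of 10 female-biased genes 4 passed the filter on low values. Cyp2a4 (log2FC 5.24 in WT mice and 5.84 in TSP-1 null mice) and Cyp2b9 (4.49 and 5.67) rose, and Cyp17a1 fell (-2.60 and -2.71). On control diet the group means of Cyp2a4 and Cyp2b9 were 0.058 to 0.185 FPKM. Both passed the filter only through CDAHFD livers, so the direction of their change was set by it. Cyp2a4 also varied widely in HFKO, at 17.6 ± 18.4 FPKM. Cux2, a female-biased transcription factor, rose in NDKO over NDWT (log2FC 2.49, FDR 0.00188) and fell on CDAHFD in TSP-1 null mice (-1.09). Cux2 was low and variable, at 0.109 ± 0.0357 FPKM in NDWT, 1.27 ± 0.845 in NDKO and 0.584 ± 0.529 in HFKO. NDWT livers were too low to help Cux2 pass the filter, which favours a rise in NDKO over NDWT. Cyp4a12b in NDKO was not called with quantile normalization (-0.57). The part of these changes in the members' values was not tested.

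Genes of cofactor supply, other molybdoenzymes and electron transfer moved in both directions. Of 9 genes for the molybdenum cofactor and the other molybdoenzymes, 1 rose and 2 fell on CDAHFD in each genotype (median log2FC 0.06 and -0.07). Xdh, xanthine dehydrogenase and the closest relative of AOX, rose from 28.2 ± 5.45 to 60.8 ± 10.6 FPKM in WT (log2FC 1.11, FDR 1.53e-07) and by a log2FC of 1.13 in TSP-1 null mice. Suox, sulfite oxidase, fell (log2FC -0.81 and -0.93), and Marc1, the mitochondrial amidoxime reducing component, fell (-0.85 and -0.88). None of the genes making the cofactor itself was called with FPKM as deposited. After median of ratios scaling 0 rose and 4 fell in WT mice, where Xdh was at 0.55, and 1 rose and 6 fell in TSP-1 null mice. The cofactor synthesis genes Mocs2 (log2FC -0.68 and -0.60) and Gphn (-0.61 and -0.71), named after their values were seen, were then among the genes that fell in both genotypes.
Of 5 genes for riboflavin uptake and FAD synthesis, the riboflavin transporters Slc52a2 (log2FC 0.65 and 0.71) and Slc52a3 (1.58 and 1.21) rose in both genotypes, and none fell (median log2FC of the 5 genes 0.15 and 0.18). Slc52a2 was called under neither of the other scalings (log2FC 0.10 to 0.20), and Slc52a3 was not called with quantile normalization. Under both of these scalings 1 gene of the list fell in WT livers and 2 in TSP-1 null livers, and the median log2FC was negative, at -0.41 and -0.36 with median of ratios and -0.24 and -0.21 with quantile normalization.
Of 3 electron transfer genes analysed, Por, the reductase that feeds cytochromes P450, fell on CDAHFD (log2FC -0.65 and -1.003) and rose in NDKO over NDWT (0.81, FDR 0.0142). Cyb5b, a cytochrome b5 of the mitochondrial outer membrane, rose on CDAHFD (0.69 and 1.004), a call that was lost after median of ratios scaling (0.13 and 0.47).

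Among 12 targets of NRF2, the transcription factor of the oxidative stress response, 8 rose in WT mice and 11 in TSP-1 null mice on CDAHFD and none fell. Their median log2FC was 1.85 and 1.70, beside 0.53 and 0.50 over all genes, and after median of ratios scaling 7 rose in each genotype. Gsta1, a glutathione transferase, went from 0.429 ± 0.277 FPKM in NDWT to 50.8 ± 11.5 in HFWT (log2FC 6.72), and Gstm3, G6pdx and Srxn1 rose by 6.41, 2.24 and 2.00. Gsta1 was also low in NDKO, at 0.331 ± 0.103 FPKM, so it passed the filter mainly through CDAHFD livers, which favours a rise.
Of 9 enzymes that act on AOX substrates or precursors, 3 rose and 1 fell in WT and 5 rose and 1 fell in TSP-1 null mice (median log2FC 0.48 and 0.68). After median of ratios scaling 1 rose and 1 fell in WT, and 1 rose and 2 fell in TSP-1 null mice (median log2FC -0.08 and 0.15). Nnmt, which makes N-methylnicotinamide, fell on CDAHFD (log2FC -1.03 and -2.10) and rose in NDKO over NDWT (1.68, FDR 0.000659), from 44.0 ± 23.3 to 128 ± 28.4 FPKM. Aldh1a7, an aldehyde dehydrogenase, rose on CDAHFD (0.60 and 1.11) and fell in NDKO (-0.77, FDR 7.42e-05). Nampt (0.79 and 0.68) and the retinal dehydrogenase gene Aldh1a2 (2.63 and 2.42) rose on CDAHFD. Nampt was called under neither of the other scalings, nor Aldh1a7 after median of ratios scaling.

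Cell type markers moved with the diet. The 9 hepatocyte markers summed to 36016 to 43886 FPKM in NDWT and 27629 to 39632 in HFWT, and to 40824 to 48618 in NDKO and 36356 to 47778 in HFKO. On CDAHFD 2 of the 9 fell in each genotype and none rose, Fgb and Serpina1a in WT and Ass1 and Cps1 in TSP-1 null mice. After median of ratios scaling 8 of the 9 fell in WT livers and 6 in TSP-1 null livers, and with quantile normalization 0 fell in either genotype. All 10 stellate cell markers rose in both genotypes, their sum going from 12.7 to 18.2 FPKM in NDWT to 138 to 294 FPKM in HFWT and from 14.6 to 16.8 in NDKO to 119 to 234 in HFKO. Of 9 macrophage markers 7 rose and 1 fell in each genotype, with sums of 173 to 230 FPKM in NDWT, 1236 to 1665 in HFWT, 170 to 286 in NDKO and 786 to 1645 in HFKO. All tested markers of portal stroma (7 of 9 listed), cholangiocytes (7 of 8) and neutrophils (5 of 8) rose in both genotypes, as did 8 of 9 lymphocyte markers. The other listed markers did not pass the filter on low values. Some tested markers, such as Cldn7 (mean 0.199 FPKM in NDWT and 0.237 in NDKO), passed it only through CDAHFD livers. For those the direction of change was set by the filter. Of 9 endothelial markers 2 rose in WT mice and 4 in TSP-1 null mice. Both other scalings gave 0 endothelial markers higher and 3 lower in WT mice, and they left 8 or 9 of the 10 stellate cell markers and 1 to 7 of the lymphocyte markers higher. With quantile normalization 6 of the 7 portal stroma markers were higher in TSP-1 null livers. In NDKO over NDWT, 1 macrophage marker (Trem2, log2FC 0.79) and 2 hepatocyte markers (Ass1, 1.08, and Cps1, 1.10) rose, and 1 stellate cell marker fell. Trem2 was low in both groups, at 0.183 ± 0.0382 FPKM in NDWT and 0.400 ± 0.142 FPKM in NDKO. The median log2FC of the macrophage markers in that comparison was 0.02. The part of cell composition in the changes of Fmo2, Fmo4, Fmo5 and Aox1 was not tested.

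Genes whose levels followed a member most closely over the 20 libraries were ranked by the root mean square distance between profiles of log2(FPKM + 0.1), each centred on its mean. The 20 libraries hold 2 diets, so any gene with a like diet response comes close. Cyb5b was nearest to Aox1 (distance 0.12), followed by Gbe1 and Cgnl1 (both 0.14). Its group means were 53.5, 38.0, 87.3 and 76.3 FPKM in NDWT, NDKO, HFWT and HFKO. Lace1 and Rnf214 were close to Aox3 (both 0.15). Slc30a7, Hjurp and Acad9 were nearest to Fmo5 (0.15, 0.16 and 0.16), and Dnajc21, Polr2m and Psmb1 to Fmo1 (0.10, 0.11 and 0.11). Distances were larger for the low genes, 0.38 to 0.42 for Fmo2 (Tmem181a, Gm16907 and Gem) and 0.27 to 0.31 for Fmo4 (Pde4d, Dixdc1 and Rpl9-ps7). Among pairs of members, Fmo5 and Aox1 were closest (0.24), then Fmo1 and Aox3 (0.26), while the adjacent Aox1 and Aox3 were 0.55 apart and the adjacent Fmo1 and Fmo2 0.91.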

How the data were processed

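Poly(A) RNA of mouse liver was sequenced as paired reads on an Illumina HiSeq by the authors and processed with QuickRNASeq. The submitters' processing notes name STAR 2.5.2 and featureCounts of Subread 1.5.1, and a human build, whereas the coordinates of the table match mouse GRCm38 (99.8% of 37607 identifiers overlapped GENCODE M21). The deposited table holds FPKM per gene, with no further normalization between libraries. Groups follow the labels, and the series description and the methods name different liver lobes. Members and gene lists were chosen with earlier results of these data known.

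FPKM was tested as log2(FPKM + 0.1) with limma 3.58.1 (R 4.3.3, trend) in 1 fit of 20 libraries, two-sided, over 14524 genes above 0.5 FPKM in at least 5 libraries, with Benjamini-Hochberg FDR. The pseudocount understates changes of low genes. All 6 members passed this filter, with at least 0.883 FPKM in every library. Listed genes low on control diet, Slc52a3 and Aldh1a2 among them, passed it only through CDAHFD livers, which sets the direction of their change. The test was checked on simulated data in which most genes were unchanged, so the check does not cover the choice of scaling between libraries. Fragments were recovered from FPKM and gene length (all values checked were whole within 0.2 fragments or less); on a gene of 1 kb, 3 fragments are 0.129 to 0.192 FPKM, counting error only. No pair of libraries in a group agreed within sampling noise. Named genes are the members, up to 4 called genes of each list by FDR, called genes within 500 kb of a member, up to 4 for each locus and comparison, the 3 genes nearest each member in profile, and Thbs1. Same-numbered livers did not deviate together (r from -0.13 to 0.081 over 30 pairs), so the values gave no sign that replicate numbers pair mice. Alternatives were other pseudocounts, filters, scalings, a replicate block and leaving out each library. Scalings of the gene lists were chosen after seeing the data. Listed genes without a row in the table used (Cyb5a, Naprt, Tf and Adgre1) were not analysed here. Some genes that these rules select are not reported here.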

Additional observations from a re-analysis of the deposited data

Results flagged for a closer look

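Of 44 sets of 5 livers checked, 4 held a liver far from the others of its group, where chance flags about 1 set in 20. Fmo1 was 31.5 FPKM in HFKO5, the lowest of its group by far, with the other 4 at 44.5 FPKM or more. HFKO5 also had the lowest summed hepatocyte markers of its group, 36356 FPKM, and the highest summed macrophage markers, 1645 FPKM, and the part of these in the Fmo1 value was not tested. Aox3 was 112 FPKM in NDWT2, where the other 4 NDWT livers were at 82.0 FPKM or less, and the summed AOX level of that liver, 122 FPKM, was flagged with it. Fmo5 made up 69.6% of the summed level of the 4 FMO genes in HFKO4, the lowest share of its group.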

How the results depend on the processing

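Counts of called members moved under 6 settings. With median of ratios scaling, CDAHFD against control diet gave 1 member higher and 1 lower in WT and 0 higher in TSP-1 null mice, and quantile normalization gave 2 higher in each genotype. Without a fold threshold 1 was lower with diet in WT and 2 in NDKO against NDWT. With only the 2 groups compared, 0 were higher in NDKO and 3 with diet in WT, as with no filter and with a pseudocount of 1. The log2FC of uncalled members, and of Fmo4 in HFWT minus NDWT, which was called, changed sign under scaling. Median of ratios scaling gave -0.49 for Fmo1 and -0.51 for Aox3 (HFKO minus NDKO), -0.46 for Fmo1 (HFWT minus NDWT) and 0.030 for Aox3 (HFKO minus HFWT). Quantile normalization gave -0.15, -0.074 and -0.23 for Fmo1, Aox3 and Fmo4 (HFKO minus NDKO), -0.051 and -0.26 for Fmo1 and Fmo4 (HFWT minus NDWT) and 0.029 for the Fmo4 interaction. Fmo4 in HFWT minus NDWT was no longer called with no filter (FDR 0.0530), with only the 2 groups (FDR 0.0654) and with a pseudocount of 1 (log2FC 0.42). The cause was not tested.

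Leaving out 1 library at a time left 3 to 4 members higher with diet in either genotype and 0 to 1 lower in the interaction (1 without NDWT4). Signs of uncalled values changed within -0.048 to 0.075 for Aox3 and -0.0026 to 0.15 for Fmo1 (HFKO minus NDKO), -0.0067 to 0.36 for Fmo4 and -0.062 to 0.086 for Fmo5 (HFKO minus HFWT), and, for the interaction, -0.099 to 0.058 for Fmo1 and -0.29 to 0.11 for Fmo4. With the replicate number as a replicate block, no member's call changed: the interaction of Fmo2 had an FDR of 0.0705 and Fmo2 in NDKO against NDWT an FDR of 0.0125. Own numbers gave the best match in 17 of 60 comparisons, each among 5 livers.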

Other observations

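Genes within 500 kb of the members were called in the same comparisons, with FPKM as deposited. Beside them, 44.1% of all genes were called higher on CDAHFD in WT liver and 41.9% in TSP-1 null liver. Lower calls made up 4.62% of all genes on CDAHFD in WT liver and 3.03% in NDKO against NDWT. Nothing particular to these loci is read from the counts. Beside the Fmo cluster of chromosome 1, 4 of 5 tested neighbours rose on CDAHFD in WT mice: Vamp4 (log2FC 0.86), Mettl13 (0.69), Gorab (0.68) and Prrc2c (0.63). In TSP-1 null mice 2 of the 5 rose, Vamp4 (0.88) and Gorab (0.59). Of 7 tested neighbours of Fmo5, 4 rose in both genotypes, with Prkab2, a subunit of AMP-activated protein kinase, going from 0.531 ± 0.102 to 2.62 ± 0.357 FPKM in WT (log2FC 2.11) and Chd1l from 2.504 ± 0.161 to 8.28 ± 1.04 FPKM (1.68). Notch2 (0.88) and Bcl9 (0.81) were the other two.

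Of 10 tested genes near Aox1 and Aox3, 3 rose on CDAHFD in WT mice, Spats2l (log2FC 2.15), Orc2 (1.14) and Kctd18 (0.76). Spats2l was at 0.167 ± 0.0588 FPKM in NDWT and 0.137 ± 0.0381 FPKM in NDKO. It passed the filter on low values only through CDAHFD livers, which set the direction of its change in both genotypes. Fam126b fell on CDAHFD in WT mice, from 5.03 ± 0.779 to 2.48 ± 0.670 FPKM (log2FC -1.02, limma FDR 1.54e-05), and in NDKO against NDWT, to 3.15 ± 0.496 FPKM (log2FC -0.66, FDR 0.0117). In TSP-1 null mice Spats2l (2.03), Orc2 (0.85) and Ppil3 (0.66) rose with Gm23966, a short gene listed at 0 in all NDKO livers. Gm23966 was at 0.945 ± 0.567 FPKM in HFKO and 1.13 ± 0.968 FPKM in NDWT, which on so short a gene are few fragments. It was also called lower in NDKO against NDWT (log2FC -2.97, limma FDR 0.0410), so its rise rests on the values of 0 in NDKO.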
